A study of Mus musculus with 21 samples.

Results

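Peg10, Sgce and Mest are imprinted mouse genes of proximal chromosome 6, of which the copy inherited from the father is the expressed one in most tissues. The 3 genes were taken by symbol from a table of 30961 gene models and followed over all 7 groups of a culture series. The RNA came from the stromal vascular fraction (SVF) of subcutaneous fat of the groin, the mixture of stromal, vascular, blood and other cells left when fat is digested and the floating adipocytes are discarded. The donors were female C57BL/6J mice of 8 to 12 weeks, with no genetic change or drug named for any group, and lymph nodes had been left out of the fat. Cells were sampled fresh (day 0) and after 3, 7, 14, 21 or 28 days in primary culture (P0) in a minimal growth medium with serum. The last group, P1, came from cells that were passaged at day 28 and then kept in culture for another 28 days, so passage and added time cannot be told apart. Each group had 3 libraries, 21 in all. The labels do not say whether the 3 came from separate mice or cultures, so the p-values measure the spread between these libraries, which may be technical.

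Genomic imprinting marks a gene in the germ line, mainly by methylation of DNA at an imprinting control region, so that only the maternal or only the paternal copy is transcribed later. Sgce and Peg10 lie head to head and share such a region, which is methylated on the maternal copy. Sgce encodes epsilon-sarcoglycan, a membrane protein of the dystrophin-associated complex, and loss of the paternal copy of human SGCE causes myoclonus dystonia. Peg10 descends from a retrotransposon, encodes proteins like the Gag and Pol of its ancestor, and is needed for the mouse placenta. Mest (also Peg1) encodes a protein with an alpha/beta hydrolase fold, carries the microRNA miR-335 in an intron, and is known in mouse fat for levels that rise when the tissue expands and that differ widely between genetically identical mice. The data here hold no allelic information, so which copy was read was not analysed.

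A level here is the number of reads of a gene in a library times a factor of that library, recovered from the deposited log2 values. Gene models without reads stand at a floor of 16 and those with few reads at a floor of 30, so a value of 30 says only that the gene lay at or below it. The symbol of a gene model could be trusted only in stretches of the table. Along most chromosomes symbols and values were not found to go together, and the row with the symbol Actb, a gene that nearly all cells express, was above the floor in only 1 of 21 libraries. Symbols were taken as supported where an early stretch of a chromosome held far more expressed genes than the rest, which left 577 protein-coding genes on 5 chromosomes. On chromosome 6 the best end of that stretch fell after its gene number 117, and 85.5% of the genes before it rose above the floor somewhere in the series, against 50.3% after it. That end was chosen to set the levels before it apart from those after it, so these shares describe the choice and do not test it. Sgce and Peg10 were numbers 10 and 11, deep inside the stretch. Mest was number 115, near its end: a stretch that ended just before Mest had a log-likelihood lower by 5.36 than the best one, and of the 10 genes on either side of Mest 9 before it and 5 after it were above the floor. Its values are therefore less surely those of Mest RNA than the values of the other pair are theirs.

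On the GRCm38 build, with the GENCODE M21 annotation, Sgce lies on chromosome 6 from 4674350 to 4747207 on the minus strand and Peg10 from 4747306 to 4760517 on the plus strand. Their starts are 98 bases apart and no exon base is shared. Mest lies 26.0 Mb further along, from 30723547 to 30748465 on the plus strand, and its exons overlap 912 exon bases of Copg2, a gene for a coat protein of Golgi vesicles, on the opposite strand (30747554 to 30896794). Strand was not kept in these libraries, and reads in that overlap may belong to either gene.

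A single Peg10 messenger carries a pair of overlapping reading frames, and ribosomes reach the longer product by slipping at a run of bases near the end of the first frame. That site is shown because the value of Peg10 counts reads of the messenger that serves both products. In transcript Peg10-202, GGGAAAC was searched on the strand of the messenger and was found 1 time in the first reading frame, with its first base at coding base 1107 of 1131, the stop codon included. The 55 bases around it, at chr6:4755297-4755351 of GRCm38 on the plus strand and credited to GENCODE M21, end with the stop codon of the first frame, and the capitals mark the slippery heptamer.
Peg10 slip site: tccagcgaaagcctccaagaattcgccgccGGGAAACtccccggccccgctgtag

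Mest has several starts, and the value of Mest sums the reads from all of them. RefSeq windows on GRCm38.p6, running from 250 bases before a start to 50 after it, matched 1 of the 3 genes, Mest. The windows of an upstream and of a downstream Mest start are shown with each CG pair, the site of DNA methylation, in capitals. CG reads the same on both strands, and 94.6% of the 32851 mouse windows hold at least 1, with a median of 7. The upstream window, at chr6:30733256-30733555 on the plus strand, holds 8 pairs, and 48.6% of all windows hold as many or more. The downstream window, at chr6:30737800-30738099 on the same strand, holds 17, a number that 31.4% of windows reach.
Mest upstream start: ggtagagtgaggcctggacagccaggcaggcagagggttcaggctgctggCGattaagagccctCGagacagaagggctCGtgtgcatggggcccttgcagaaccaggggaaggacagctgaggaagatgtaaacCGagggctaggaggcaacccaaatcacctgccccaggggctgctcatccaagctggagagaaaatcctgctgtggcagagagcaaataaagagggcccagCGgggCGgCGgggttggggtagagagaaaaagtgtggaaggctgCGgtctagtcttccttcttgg
Mest downstream start: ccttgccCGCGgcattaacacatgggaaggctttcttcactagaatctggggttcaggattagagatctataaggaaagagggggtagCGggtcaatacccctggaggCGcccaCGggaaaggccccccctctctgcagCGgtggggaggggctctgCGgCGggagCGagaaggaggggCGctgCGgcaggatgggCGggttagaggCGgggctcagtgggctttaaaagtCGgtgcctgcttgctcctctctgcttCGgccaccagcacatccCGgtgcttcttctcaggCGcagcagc

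Sgce fell when cells were put in culture, then rose past its fresh level from day 7 on. Its level was 952, 720 and 672 in the 3 day 0 libraries and 399, 413 and 382 on day 3. It was 1230, 1084 and 1031 on day 7 and 2646, 2003 and 2216 on day 14. The groups did not overlap in this stretch: each day 3 library was below each day 0 library, each day 7 library above both, and each day 14 library higher still. Levels were 2836, 2729 and 3182 on day 21, 2666, 2751 and 2895 on day 28, and 4125, 3626 and 3071 in P1. The libraries of days 21 and 28 overlapped with each other and lay above each day 14 library, though neither day passed the test against day 14. In P1, 2 of the 3 libraries lay above every other library of the series. Against day 0, limma on all 21 libraries gave a fold of 0.515 on day 3 (log2 change of -0.96 ± 0.14, SE; adjusted p = 1.44e-05) and of 3.59 on day 28 (1.84 ± 0.14; adjusted p = 3.46e-09).

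Peg10 was at the edge of what the table can show in the fresh fraction and through primary culture, and stood apart in P1. Its level was 55.8 in 1 day 0 library and on the floor of 30 in the other two, and 41.0 in 1 day 3 library with the other two again on the floor. On day 7 all 3 libraries were above it, at 51.1, 64.8 and 57.8. Levels then stayed low, at 43.7, 38.1 and 57.5 on day 14, at 54.1, 46.8 and 61.0 on day 21, and at 50.2, 30.0 (the floor) and 51.7 on day 28. In P1 they were 138, 130 and 106, so that the lowest P1 library was 1.64 times the highest of all other libraries. The reads behind these levels were few, from 34 to 65 in the primary libraries above the floor and 186, 164 and 113 in P1. The floor itself stood at no more than 24.6 reads in the day 0 libraries and at up to 40.5 in the others. In limma, Peg10 in P1 was 2.90-fold its level on day 28 of primary culture (log2 change 1.54 ± 0.26, SE; adjusted p = 0.000573) and 3.36-fold that of day 0 (1.75 ± 0.26; adjusted p = 1.63e-05). Because libraries on the floor are entered at 30, these folds may understate the differences.

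Mest rose between days 3 and 14 and then spread out. Its level was 310, 257 and 198 on day 0, 278, 244 and 238 on day 3, and 548, 375 and 594 on day 7. Each day 7 library was above each earlier one. On day 14 the 3 libraries read 1117, 2192 and 688, on day 21 they read 863, 1758 and 2150, and on day 28 they read 1270, 2481 and 965. In P1 they lay closer together, at 1053, 1401 and 1323. All 12 libraries from day 14 on were above all 9 earlier ones, while among themselves the 4 late groups overlapped. Against day 0, Mest was 5.78-fold higher on day 28 (log2 change 2.53 ± 0.40, SE; limma adjusted p = 3.67e-05) and 4.98-fold higher in P1 (2.32 ± 0.40; adjusted p = 8.14e-05).

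**Figure D1:**
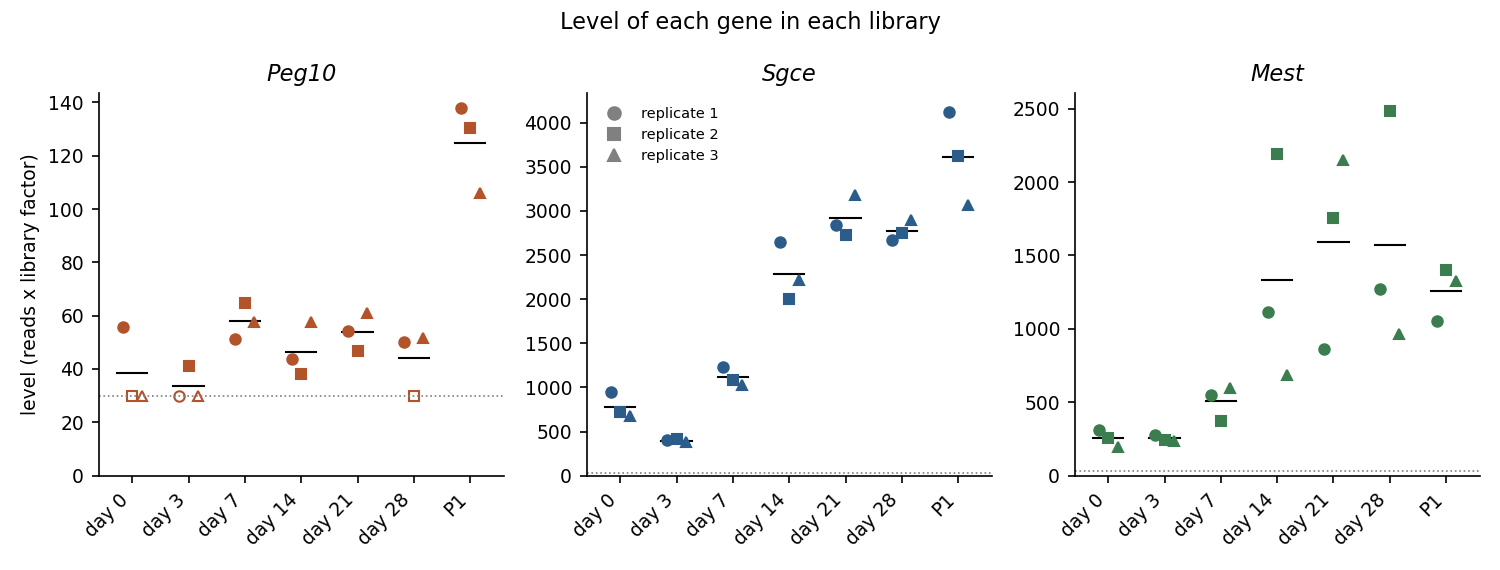
Level (reads times library factor) of Peg10, Sgce and Mest in each of the 21 libraries, by group, on axes that start at 0. Symbols are the 3 replicates of a group, short lines are group means, the dotted line is the floor of 30 and open symbols lie on it. Peg10 is at 106 to 138 in P1 and at most 64.8 elsewhere, Sgce is lowest on day 3, and Mest spreads from 688 to 2481 between days 14 and 28.

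Of 7767 gene models tested, 10.9% were called higher on day 3 than on day 0 and 40.5% lower (adjusted p under 0.05), and Sgce was among the lower ones. All 3 genes were higher on day 7 than on day 0, against 12.1% of gene models. Of the 3, Sgce and Mest were higher on day 14, on day 21 and on day 28, where 9.4%, 12.5% and 13.2% of gene models were, with 47.1% lower on day 28. Peg10 did not pass on those days, but with each of the 3 other scalings tried it was higher on days 14 and 21, at 0.90 to 1.11 (log2), and with 2 of them on day 28, at 0.64 and 0.72. In P1 all 3 were higher than on day 0, against 8.14% of gene models. These 6 comparisons share the day 0 libraries. The share of lower calls depends on the scaling: over the 3172 gene models never on a floor the median change was -0.33 (log2) on day 28 against day 0 and -0.63 in P1, but 0.26 and 0.31 after quantile normalization. With other scalings of the libraries 1473 to 2330 gene models were higher and 1664 to 2707 lower in these comparisons. Sgce and Mest kept their calls from day 14 on under each of those scalings. The fall of Sgce on day 3 held as well but was smaller there, between -0.65 and -0.44 (log2).

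The day 7 calls of Peg10 and Mest against day 0 lay close to the threshold. Peg10 was higher by 0.64 ± 0.26 (log2, SE; limma adjusted p = 0.0456) and Mest by 0.98 ± 0.40 (adjusted p = 0.0476). Leaving out a single library ended the call of Peg10 in 5 of 6 cases, down to 0.49 (adjusted p = 0.167) without replicate 3 of day 0, and that of Mest in 4 of 6, down to 0.81 (adjusted p = 0.155) without the same library. With the other scalings both were larger: Peg10 was at 0.89 to 1.13 (limma adjusted p between 0.00113 and 0.00571) and Mest at 1.31 to 1.54 (adjusted p between 0.0042 and 0.0108). Sgce on day 7, at 0.53 ± 0.14 (adjusted p = 0.00333), kept its call in all 6.

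From one sampling day to the next, Sgce passed the test in the steps to days 3, 7 and 14 and Mest in the step to day 14, and differences between the genes in these steps were not tested. From day 3 to day 7 only Sgce passed the test, with a 2.80-fold rise (log2 change 1.48 ± 0.14; limma adjusted p = 2.3e-06), in a step where 3.6% of gene models were called higher. Peg10 at 0.79 ± 0.26 (adjusted p = 0.0828) and Mest at 0.97 ± 0.40 (adjusted p = 0.197) did not pass. From day 7 to day 14 Sgce (1.03 ± 0.14; limma adjusted p = 3.16e-05) and Mest (1.26 ± 0.40; adjusted p = 0.0298) rose, against 4.3% of gene models. The call of Mest was lost in 4 of 6 fits that left out a library, the lowest being 0.82 (adjusted p = 0.169) without replicate 2 of day 14. From day 14 to day 21 none of the 3 passed, while 5.38% of gene models were called higher. Over the last primary week, from day 21 to day 28, the 3 changes lay between -0.33 and -0.03 (log2), with 8 gene models called of all tested. Over the primary series as a whole the limma F test across days 0 to 28 called Sgce (F = 146, adjusted p = 1.6e-11) and Mest (F = 18.4, adjusted p = 1.17e-05) but not Peg10 (F = 2.75, adjusted p = 0.0728), and it called 71.5% of gene models. With the 3 other scalings Peg10 passed (F = 8.01, 4.94 and 5.94; limma adjusted p between 0.00141 and 0.0106). The failure of Peg10 to pass is no sign of a steady level, since 5 of its 18 primary libraries lay on the floor.

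In P1 against day 28 of primary culture, Peg10 was the one of the 3 genes that passed the test. It rose, as 1.85% of gene models did, while 12.9% were lower. Sgce at 0.37 ± 0.14 (log2, SE; limma adjusted p = 0.079) and Mest at -0.21 ± 0.40 (adjusted p = 0.847) did not pass. Peg10 kept its call in every fit that left out 1 of the 6 libraries and under every scaling, with log2 changes of 1.85 to 1.87 under the other scalings. Sgce passed under each of the other scalings, at 0.67 to 0.70, so its call in P1 turns on how the libraries are scaled.

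**Figure D2:**
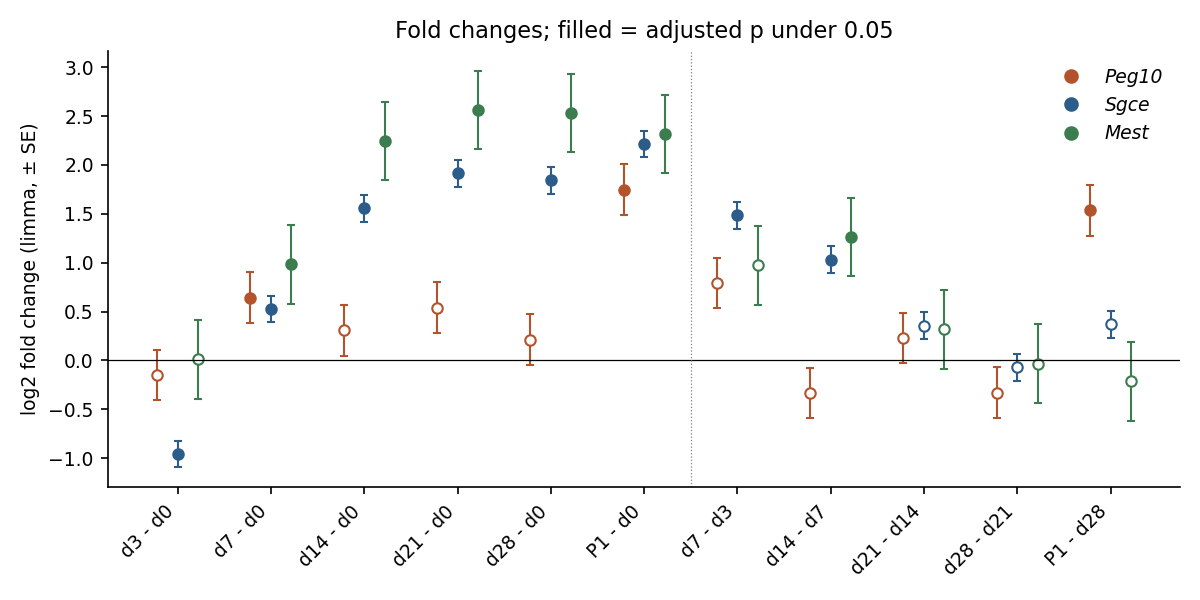
Log2 fold changes (points) with standard errors (bars) of Peg10, Sgce and Mest from limma on all 21 libraries: the 6 comparisons with day 0 to the left of the dotted line, the successive steps and P1 against day 28 to its right. Filled points have an adjusted p under 0.05. Peg10 is filled on day 7 and in both P1 comparisons, and Sgce on day 3 is the only filled point below 0.

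Ordered by mean log2 level, the groups ran differently for each gene, as a description, since most neighbours in these orders did not differ in the test. For Sgce the order was day 3, day 0, day 7, day 14, day 28, day 21 and P1, and each step up to day 14 passed the test (limma adjusted p between 1.44e-05 and 0.00333), while no step above day 14 did. For Peg10 the order was day 3, day 0, day 28, day 14, day 21, day 7 and P1, and only the last step, from day 7 to P1, passed (1.10 ± 0.26, log2; adjusted p = 0.00322). For Mest the order was day 0, day 3, day 7, day 14, P1, day 28 and day 21, and only the step from day 7 to day 14 passed. Per kilobase of annotated exon, a rough measure between genes, Mest and Sgce were at 64.8 ± 14.3 and 73.6 ± 14.1 on day 0 (SD, n = 3). Peg10 was at 5.79 ± 2.24 on that day, with 2 libraries on the floor. On day 28 the levels per kilobase were 399 ± 203 for Mest, 261 ± 10.9 for Sgce and 6.59 ± 1.82 for Peg10. In P1 they were 320 ± 46.4, 340 ± 49.7 and 18.7 ± 2.51. The libraries of Mest and Sgce overlapped on day 0, on day 28 (245 to 630 and 251 to 273) and in P1. Peg10 stayed far below both. The annotated exons of Sgce include retained introns, which lowers its value per kilobase. Those of Mest include bases shared with Copg2, where reads may belong to either gene.

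Within a library, scaling drops out of a difference of log2 levels unless a gene lies on the floor. Peg10 and Sgce did not keep a fixed ratio there, although their starts are 98 bases apart. Deviations of their log2 levels from the group means correlated with r = 0.56, as a description of libraries that share depth and scaling. The log2 level of Peg10 minus that of Sgce lay between -4.58 and -4.09 on day 0, between -3.73 and -3.33 on day 3 and between -4.59 and -4.07 on day 7. It was lower on day 14 (-5.92 to -5.27), day 21 (-5.87 to -5.71) and day 28 (-6.52 to -5.73), and between -4.90 and -4.80 in P1. As entered, the libraries of days 14 to 28 overlapped with none of the other groups. On day 0 and on day 3, Peg10 lay on the floor in 2 of 3 libraries, where the true differences may be lower. Only the gap to day 7 and P1 does not depend on these entries. A permutation test over the 7 groups (F = 34.4, 100000 resamples; F has no direction) gave p = 1e-05, the smallest it can give, and 3e-05 after adjustment over the 3 pairs. With Peg10 entered at the floor in 5 libraries, the true differences there are lower or equal, and scaling does not drop out. These entries are part of the F.

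Mest against Sgce did not pass the test over the 7 groups. The difference of their log2 levels ran from -1.76 to -1.48 on day 0, from -0.76 to -0.52 on day 3 and from -1.53 to -0.80 on day 7, so that each day 3 library lay above each library of days 0 and 7. It ran from -1.69 to 0.13 on day 14, from -1.72 to -0.57 on day 21, from -1.58 to -0.15 on day 28 and from -1.97 to -1.21 in P1. Late groups covered most of the whole range by themselves, and the permutation test over the 7 groups gave F = 1.16 (permutation p = 0.378, adjusted p = 0.378), which does not show that the ratio was fixed. Mest against Peg10 did differ between groups (F = 5.76, permutation p = 0.0057, adjusted p = 0.00855), from 2.47 to 3.10 on day 0 to 4.22 to 6.37 on day 28 and 2.93 to 3.64 in P1. Where Peg10 lay on the floor, the true difference is higher or equal.

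**Figure D3:**
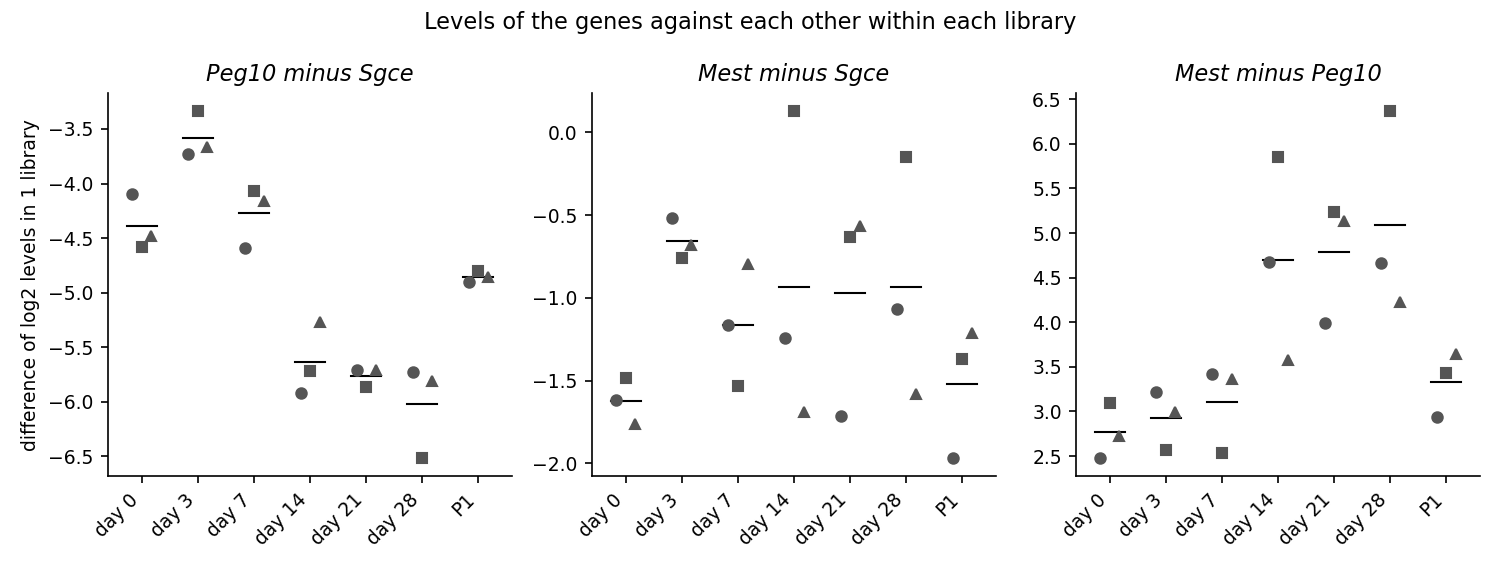
Difference of the log2 levels of a pair of genes within each of the 21 libraries, by group, with group means as short lines and the 3 replicates as circles, squares and triangles. Peg10 minus Sgce drops below -5 on days 14 to 28 and is between -4.90 and -4.80 in P1, whereas Mest minus Sgce spreads from -1.97 to 0.13, with days 14 to 28 and P1 overlapping each other and day 3 lying above all day 0, day 7 and P1 libraries.

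The spread of Mest between replicates was wide. The standard deviation of its log2 level within groups, pooled over the 7 groups, was 0.53, larger than for 91.9% of the 967 tested gene models within 1 log2 unit of its mean level, whose median was 0.19. For Sgce it was 0.17 (larger than for 53.6% of 515 such gene models) and for Peg10 0.32 (larger than for 45.6% of 4503). The value of Peg10 rests in part on floor entries, in 2 libraries of day 0, 2 of day 3 and 1 of day 28. Mest was uneven in time as well, with a standard deviation of 0.33 on day 0 and 0.12 on day 3, of 0.84, 0.69 and 0.70 on days 14, 21 and 28, and of 0.22 in P1. The highest library was 3.19 times the lowest on day 14 and 2.57 times on day 28, against 1.32 and 1.09 times for Sgce. The highest Mest library was replicate 2 on days 14 and 28 and replicate 3 on day 21.

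Copg2, the overlapping neighbour of Mest, had its libraries in the same order as Mest on days 14 and 21 but not on day 28 or in P1. It is number 116 of the chromosome, and its symbol is less sure still than that of Mest, since a stretch that ended just before it had a log-likelihood lower by only 2.78 than the best one. Its levels were 837, 1200 and 698 on day 14 and 716, 1079 and 1651 on day 21. On day 28 they were 1229, 1103 and 902, with another library highest than for Mest, and in P1 they were 947, 790 and 844, the opposite order. Over 21 libraries the deviations of Mest and Copg2 from their group means correlated with r = 0.69, and those of Mest and Sgce with r = -0.01, given as a description of libraries that share their depth and scaling. The part of shared reads in this was not tested. Between groups the pair differed: Copg2 on day 28 against day 0 was at 0.13 ± 0.24 (log2, SE; limma adjusted p = 0.67), where Mest rose 5.78-fold. The spread of Copg2 within groups, 0.31, was larger than for 84.2% of gene models of like level.

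**Figure D4:**
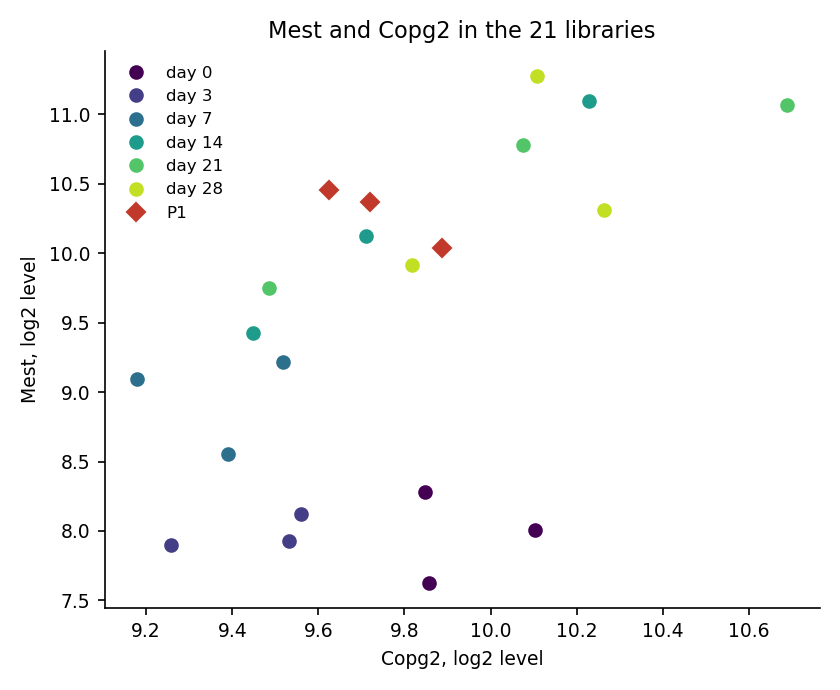
Log2 level of Mest (vertical axis) against that of Copg2 (horizontal axis) in the 21 libraries, coloured by group, with P1 as diamonds. Among day 14 and day 21 libraries both levels go up together, while day 0 libraries have Copg2 levels like the late ones with Mest between 198 and 310 on the linear scale.

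Of 23 other imprinted genes and close neighbours of proximal chromosome 6, 15 had a supported symbol and 12 could be tested, the others being above the floor in too few libraries. On day 28 against day 0, 3 of the 12 were higher and 5 lower, where 13.2% and 47.1% of all gene models were, with a median log2 change of -0.12 beside -0.54 over all tested gene models. With the other scalings 4 to 6 were higher and 3 lower, and the median was 0.21 to 0.39. Those higher were Pon3 (1.25 ± 0.17, SE; limma adjusted p = 7.58e-06), a paraoxonase, Cep41 (0.96 ± 0.24; adjusted p = 0.00247), a protein of centrosomes and cilia, and Tfpi2 (0.51 ± 0.21; adjusted p = 0.0391), a secreted protease inhibitor expressed from the maternal copy in the mouse placenta. Those lower included Ppp1r9a (-3.35 ± 0.35; limma adjusted p = 2.77e-07), a neighbour of Peg10 that encodes the actin-binding neurabin, Pdk4 (-2.17 ± 0.26; adjusted p = 1.5e-06), a kinase that restrains pyruvate dehydrogenase, and Asb4 (-1.71 ± 0.39; adjusted p = 0.00111), a maternally expressed component of ubiquitin ligases. Each of these 6 kept its call under the other scalings. The lower calls of Casd1 (-0.64) and Pon2 (-0.24) were lost there, and Pon2 was called higher with scaling by summed reads (0.27; limma adjusted p = 0.00474). Like Mest, Cep41 lies near the end of the supported stretch.

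On day 3 against day 0, 3 of the 12 were higher (Tfpi2, Dlx5 and Cpa4) and 4 lower (Ppp1r9a, Pon2, Asb4 and Pdk4), beside 10.9% and 40.5% of all gene models. With the other scalings 5 to 6 were higher and 4 lower. Cpa4 was at the floor of 16 in every day 0 library and at 30.0 to 46.4 on day 3, so its call rests in part on the step between the floors. Dlx5 was at 30.0 to 41.5 on day 0, at or near the floor. Asb4 went from levels of 235 to 352 on day 0 to the floor in all 3 day 3 libraries, as far as the floor lets it be followed, and Tfpi2 from 258 to 297 up to 1080 to 1210. In P1 against day 28, Pdk4 rose with Peg10 (1.34 ± 0.26; limma adjusted p = 0.00181), and Tfpi2 (-1.02 ± 0.21; adjusted p = 0.00248) and Pon2 (-0.43 ± 0.08; adjusted p = 0.0014) were lower, with a median of -0.16 over the 12 beside -0.22 over all. Of all gene models 1.85% were higher and 12.9% lower. Under the other scalings the call of Pon2 was lost, Casd1 was called higher at 0.81 to 0.86, and the median was 0.15 to 0.16. The 12 genes thus went in both directions in each of these comparisons. None of the 32 imprinted genes listed from elsewhere in the genome had a supported symbol, and they are not analysed here.

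Among 453 other tested genes with a supported symbol, those whose log2 levels went most like each of the 3 genes were picked by Pearson correlation over the 21 libraries, as a description across libraries that share the course of the culture. For Sgce they were Pdgfd (r = 0.960), a growth factor of the platelet-derived family, Cpq (0.956), Zeb1 (0.953), a transcription factor of mesenchymal cells, Reck (0.949), a membrane inhibitor of matrix metalloproteinases, and Runx1t1 (0.941). For Mest they were Svep1 (0.892), an extracellular matrix protein, Cpq (0.891), Mmp12 (0.889), Sgce itself (0.880) and Fam221b (0.878). For Peg10 the values were lower, with Ccdc152 (0.793), Pdgfd (0.698), Gata6 (0.690), Ghr (0.666), the growth hormone receptor, and Car8 (0.643), and Sgce came next (0.618). Over the 7 group means the closest were Zeb1 for Sgce (0.987), Npr2 for Mest (0.993) and Gata6 for Peg10 (0.935).

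The mixture of cells changed over the same course, and in bulk RNA a fall in the number of cells of a type cannot be told apart from less RNA per cell. Of 10 stromal markers 3 had a supported symbol (Col1a2, Col15a1 and Svep1), and all 3 were higher on day 28 than on day 0. Their summed level was 7860 to 9020 on day 0, 18900 to 22800 on day 3, 132000 to 171000 on day 28 and 90300 to 126000 in P1. Col15a1 was lower on day 3 than on day 0 (log2 change -1.64 ± 0.30, SE; limma adjusted p = 0.000198), against the direction of the sum. Of 7 epithelial markers 3 could be read (Esrp1, Grhl2 and Prlr), with a summed level of 30700 to 70300 on day 0 and 3270 to 3420 on day 3. Of these, Prlr fell (log2 change -5.94 ± 0.49, SE; limma adjusted p = 2.08e-08), while Esrp1 was at -0.24 (adjusted p = 0.49) and Grhl2 at -0.66 (adjusted p = 0.0305), and under the other scalings 1 of the 3 passed. On day 28 Esrp1 and Grhl2 were at the floor in all 3 libraries. Of 5 adipocyte markers Lep and Aqp7 could be read, summed to 1640 to 1760 on day 0 and to at most 43.8 in any later library. Of 9 genes of dividing cells 3 could be read (Melk, Smc2 and Rad54b), and all 3 were higher on day 3, the day on which Sgce was lowest. Their sum was 644 to 790 on day 0, 3030 to 3600 on day 3 and 1960 to 2180 on day 7. It was 307 to 810 on day 28 and 607 to 763 in P1. Of 8 leukocyte markers 4 had a supported symbol, with Pax5 and Sit1 at the floor throughout. The 4 summed to 2190 to 2530 on day 0, 1180 to 1350 on day 3 and 1180 to 1320 on day 7. They stood at 3120 to 3850 on day 28 and 794 to 1080 in P1. None of the 7 endothelial and mural markers had a supported symbol. The part of these shifts in the changes of Peg10, Sgce and Mest was not tested.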

How the data were processed

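Total RNA of 21 libraries, 7 groups of 3, was turned into amplified cDNA from 15 ng with the SMART-Seq HT PLUS kit, per the labels, which does not mark strand. Either of 2 RNA kits was used, and the labels do not tie them to libraries. The build was GRCm39 per the submitters' processing notes. Neither aligner nor counter, annotation or scaling was given in the sources used here. In the single table, the authors deposited log2 values, centred so that each gene model sums to 0 over the libraries, with floors that repeat exactly. Reading the floors as levels of 16 (no reads) and 30 gave each library's factor, and with it levels for 30466 of 30961 gene models. Of 14440 values under 200 checked in gene models with both floors, 99.9% were whole reads within 0.1 read. Reads above the floor came to 2644220 to 3994524 per library, and reads below it are missing, so the full depth is unknown, no counting interval was computed and no count test was run. The absolute scale rests on that reading of the floors, while differences equal those of the deposited values.

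Symbols were checked against GENCODE M21 (GRCm38) by the best single break per chromosome in a multinomial likelihood over 6 classes of level per kilobase of exon, which cannot see a small offset in bases. Gene models above the floor in at least 3 libraries (7767) went into limma 3.58.1 (R 4.3.3) with a mean-variance trend, 1 fit over all libraries and Benjamini-Hochberg adjustment within each comparison over all of them. Within-library differences were tested by permutation with 100000 resamples. The recovery, the break and the fit were tested on simulated data. Named genes besides the 3 are listed neighbours and imprinted genes, and the 5 most alike, all with a supported symbol. Alternatives were 3 scalings, 2 filters, a raised floor, groups fitted alone, a replicate block and leaving out each library. The 3 genes and all lists were chosen with earlier results of these data known. Replicates of a group correlated at 0.937 to 0.962.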

Additional observations from a re-analysis of the deposited data

How the results depend on the processing

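Of 603 alternative values for the 3 genes, 547 kept their direction and their side of the threshold, 19 lost a call, 19 gained one, and 18 changes that were not called before or after took the other sign. Among these, Peg10 on day 3 against day 0 was at 0.25 (0.252), 0.16 (0.156) and 0.37 (0.371) under the other scalings and Mest in P1 against day 28 at 0.067, 0.115 and 0.096. Quantile normalization put Peg10 at 0.219 on day 14 against day 7 and at -0.136 on day 21 against day 14, and scaling by summed reads put Mest at 0.013 on day 28 against day 21. Without single libraries such values ran from -0.299 to 0.150 (Peg10) and -0.160 to 0.164 (Mest) on day 3 against day 0, and for Mest from -0.078 to 0.759 on day 21 against day 14, from -0.424 to 0.260 on day 28 against day 21 and from -0.506 to 0.175 in P1 against day 28. Without the filter on low levels, the day 7 calls against day 0 were lost for Peg10 (0.64, log2; limma adjusted p = 0.105) and Mest (0.98; adjusted p = 0.118), as was Mest on day 14 against day 7 (1.26; adjusted p = 0.0997). More gene models are tested there. With only the compared groups in the fit, which leaves fewer libraries for the spread, the same estimates were lost for Peg10 on day 7 (0.64; adjusted p = 0.116) and for Mest on day 14 against day 7 (1.26; adjusted p = 0.161). With a replicate block Peg10 on day 7 against day 0 was at 0.64 with an adjusted p of 0.0536, and no other call of the 3 genes changed. Whether replicate numbers pair the libraries is not known. Same-numbered deviations correlated between -0.117 and 0.118 and in no comparison all above 0.1, which cannot show that same-numbered libraries come from separate sources.

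The other scalings raised Peg10 in primary culture past the threshold: quantile normalization gave 1.11, 0.97 and 0.64 (0.635 for day 28) against day 0 on days 14, 21 and 28, median scaling 0.90 and 0.91 (0.905 for day 21) on days 14 and 21, and scaling by summed reads, added after seeing the data, 0.95, 1.00 and 0.72. The F of Peg10 over days 0 to 28 became 8.01, 4.94 and 5.94. Sgce in P1 against day 28 became 0.67, 0.70 and 0.68. The cause was not tested. With those scalings, calls on day 14 against day 7 went from 334 higher and 1554 lower to 490 to 711 and 702 to 1034, on day 21 against day 14 from 418 and 70 to 204 to 238 and 167 to 207, and in P1 against day 28 from 144 and 1000 to 375 to 414 and 375 to 448.

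Leaving out each library in turn gave ranges for the results whose call changed: Peg10 on day 7 against day 0 0.49 to 0.94, Mest on day 7 0.81 to 1.19, Peg10 on day 14 0.14 to 0.61 (0.145 to 0.608), Peg10 on day 21 0.39 to 0.84, Mest on day 14 against day 7 0.82 to 1.66, Sgce in P1 against day 28 0.27 to 0.48, and the F of Peg10 2.07 to 5.02. Peg10 on days 14 and 21 and its F passed without replicate 1 of day 0, the only day 0 library above the floor (0.61, 0.84 and 5.02), the F also without replicate 2 of day 28 (3.49), and Sgce in P1 without replicate 3 of P1 (0.48). The within-library differences kept their side of the threshold throughout. Calls on day 21 against day 14 numbered 488 in all and 280 to 880 without single libraries, 309 without the filter and 151 in the groups alone. On day 28 against day 21, 8 (415 at an unadjusted p under 0.05) became 13 to 15 under 2 scalings and in the groups alone and up to 17 without a library. In P1 against day 28, 1144 became 528 in the groups alone and 748 without replicate 3 of day 28. Depth limits Peg10, of which 5 of 21 libraries lay on the floor.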
